A study of Homo sapiens with 23 samples.

Results

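NQO1, AKR1B10, AKR1C1, AKR1C2, AKR1C3, GCLM, GCLC, TXNRD1 and SRXN1 are 9 target genes of the transcription factor NRF2, and their transcripts were followed here in A549 cells depleted of THUMPD3. The genes were chosen by name, as antioxidant and aldo-keto reductase genes. They are 9 of the 61806 genes in the count table of a first set of libraries and 9 of the 42901 genes in that of a second, more deeply sequenced set. A549 is an established line of human lung adenocarcinoma cells, and it is known to carry a mutant KEAP1. Counts per gene do not show a mutation, so the KEAP1 allele was not examined.

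THUMPD3 is a methyltransferase that makes the modified nucleoside m2G in RNA, and the study asked what follows its loss in lung cancer cells. In the first set, siD3 #3 (3 libraries) was a transfected siRNA against THUMPD3, harvested on day 5 and set against siControl (2 libraries). The knockdowns shD3 #1 and shD3 #4 (3 libraries each) were shRNAs expressed from a doxycycline-inducible lentiviral vector in puromycin-selected cells. They were harvested on day 6 and set against sh1Control and sh4Control (3 libraries each). The deep set held shD3 #1 and sh1Control (3 libraries each). Knockdown samples are labelled as THUMPD3 knockdown and control samples as wild type, and all come from the same line. The study's methods call the controls untreated and the knockdowns treated. They do not say whether the shRNA lines were grown from single clones. Delivery and harvest day cannot be told apart.

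NRF2, encoded by NFE2L2, is held at a low level in most cells by KEAP1, an adaptor that brings it to the CUL3 and RBX1 ubiquitin ligase. When KEAP1 fails, NRF2 builds up, pairs with a small MAF protein and binds antioxidant response elements beside its target genes, where BACH1 competes with it. The targets remove quinones and carbonyls, make glutathione and keep thioredoxin reduced, and they are known to be highly expressed in lung tumours that have lost KEAP1.

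Libraries of the first set held between 9854294 and 22101059 counts, and those of the deep set between 27285889 and 59974740. Mitochondrially encoded genes took 24.8% to 37.4% and 11.8% to 15.4% of these counts. In the deep set both split by condition. Its controls held 51101905 to 59974740 counts (14.7% to 15.4% mitochondrial) and its knockdowns 27285889 to 35458367 (11.8% to 12.5%). Depth and knockdown therefore cannot be told apart in that set. The same holds for the siRNA groups, where both also split. There siControl held 13535327 to 18141512 counts (24.8% to 27.3% mitochondrial) and siD3 #3 19117117 to 22101059 (29.8% to 36.5%). In the first shRNA groups the mitochondrial share alone split. It was 31.4% to 33.6% in sh1Control and 29.0% to 29.6% in shD3 #1, and 27.8% to 30.9% in sh4Control and 31.2% to 37.4% in shD3 #4. THUMPD3 fell in every comparison, by 0.97 on the log2 scale in shD3 #1, 1.67 in shD3 #4, 2.54 in siD3 #3 and 1.01 in deep shD3 #1, with adjusted p-values of 6.42e-09, 2.42e-15, 6.88e-06 and 1.55e-09 (edgeR). All 5 epithelial markers looked for (EPCAM, KRT8, KRT18, KRT19 and CDH1) were at 1 cpm (counts scaled to a common library size) or more in every group, and their sum was 2415 to 5501 cpm per library. Within this sum KRT19 rose (1.95 ± 0.07, adjusted p = 4.33e-12) and CDH1 fell (-1.39 ± 0.08, adjusted p = 5.79e-10) in shD3 #1, and in deep shD3 #1 they were at 1.71 and -1.39. Of the 5 markers, 4 were higher and 1 lower in shD3 #1 at an adjusted p under 0.05 (28.6% and 27.8% of all genes). In deep shD3 #1 it was 3 and 1 (31.1% and 31.5%). In shD3 #4 it was 2 and 3 (20.0% and 20.8%), none by 1.5-fold or more, and in siD3 #3 1 and 0 (16.6% and 16.4%). The siD3 #3 gene was KRT19 (1.41 ± 0.20, adjusted p = 0.00163). CDH1 was at 0.52 ± 0.29 in siD3 #3 (adjusted p = 0.211), and rose without siD3 #3 replicate 3 (0.79 ± 0.08, adjusted p = 3.73e-05). The sum of the 4 fibroblast markers was low but higher in every knockdown without overlap. Of these markers, 1 in siD3 #3 and 2 in each shRNA knockdown group had a mean of 1 cpm or more. Their sum was 2.14 to 2.72 cpm in sh1Control and 8.75 to 9.5 cpm in shD3 #1, 1.24 to 2.4 cpm in sh4Control and 5.59 to 6.89 cpm in shD3 #4, 0.559 to 0.71 cpm in siControl and 2.51 to 2.94 cpm in siD3 #3, and 0.119 to 0.496 cpm and 4.76 to 5.28 cpm in the deep set. DCN was at 0 in every control group and in both shD3 #1 groups. Group means of all 4 endothelial markers were under 1 cpm, although CDH5 reached 1.20 cpm in a shD3 #4 library and 1.02 cpm in a deep shD3 #1 library. The endothelial sum was 0.142 to 0.335 cpm in siControl and 1.78 to 2.22 cpm in siD3 #3, and 0.424 to 0.483 cpm in sh4Control and 1.09 to 1.71 cpm in shD3 #4. It overlapped between sh1Control (0.357 to 1.02 cpm) and shD3 #1 (0.393 to 0.464 cpm). In the deep set it was 0.523 to 0.714 cpm in the controls and 0.72 to 1.39 cpm in the knockdown. Of 4 immune markers, 1 reached a group mean of 1 cpm. The part of these markers in the results was not tested. A library of the siRNA knockdown stood apart. In siD3 #3 replicate 3 the epithelial markers summed to 2415 cpm, against 4864 and 5087 cpm in the other siD3 #3 libraries. The siD3 #3 values of the 9 genes are given with and without this library, and other listed genes whose call it changed are named. Among them, CDH5 was at 1.72 ± 0.94 in siD3 #3 (adjusted p = 0.198), and at 2.19 ± 0.58 without this library (adjusted p = 0.0131). KDR was higher in siD3 #3 (3.22 ± 0.93, adjusted p = 0.0322) and was not tested without this library.

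All 9 genes are protein-coding (positions on GRCh38, GENCODE 44). The AKR1C genes form a cluster on chromosome 10, with AKR1C1 at chr10:4963253-4983283, AKR1C2 at chr10:4987775-5018031 on the opposite strand and AKR1C3 at chr10:5035354-5107686. AKR1B10 is at chr7:134527567-134541412, NQO1 at chr16:69706996-69726668, GCLM at chr1:93885199-93909456 and GCLC at chr6:53497341-53616970. TXNRD1 is at chr12:104215779-104350307 and SRXN1 at chr20:646615-653200. AKR1C1 and AKR1C2 are near copies of each other. Their coding sequences were identical at 98.0% of 972 bases, with 19 differences, whereas AKR1C3 was 92.1% and 91.6% identical to them. Their promoters (RefSeq, GRCh38.p14, from 250 bases before to 50 after the start) were identical at 98.6% of 292 aligned bases, as printed next. These promoters are shown because the transcripts of this pair responded differently to the knockdowns. The promoter of AKR1C1 is at chr10:4963165-4963464 (plus strand) and that of AKR1C2 at chr10:5003808-5004107 (minus strand), and capitals mark the bases that differ or have no partner in the other.

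AKR1C1: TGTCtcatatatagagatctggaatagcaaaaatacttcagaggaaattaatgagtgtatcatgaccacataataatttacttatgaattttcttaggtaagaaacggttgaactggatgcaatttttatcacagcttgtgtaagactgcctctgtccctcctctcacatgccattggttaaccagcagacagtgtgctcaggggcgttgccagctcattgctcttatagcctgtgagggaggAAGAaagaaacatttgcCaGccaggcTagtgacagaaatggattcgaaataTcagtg

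AKR1C2: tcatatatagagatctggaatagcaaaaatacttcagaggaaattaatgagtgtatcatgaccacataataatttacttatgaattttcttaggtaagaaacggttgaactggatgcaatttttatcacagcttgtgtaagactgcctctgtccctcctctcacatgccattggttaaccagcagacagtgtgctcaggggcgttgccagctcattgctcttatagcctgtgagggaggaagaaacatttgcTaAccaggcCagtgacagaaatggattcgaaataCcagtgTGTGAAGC

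RefSeq promoters of the same length were found for 8 of the 9 genes (no entry for AKR1B10) and searched on both strands for the core letters of the antioxidant response element, TGACNNNGC. In the promoter nearest the main start site, GCLM had 1 match and TXNRD1 had 2, and the other 6 genes had none. Over all 10 promoters of these 8 genes, which include a second one of TXNRD1 and of AKR1C3, 3 held a match. These letters occurred in 13.3% of all 35116 promoters searched, and the difference was not tested. The match in GCLM was GCTTAGTCA at position -34 from the start, read on the opposite strand. TXNRD1 held TGACTTCGC at -99 on its own strand and GCTCCGTCA at -8 on the opposite strand. Its second promoter (chr12:104286782-104287081, plus strand) held GCTTTGTCA at -102 on the opposite strand. A match is a description of the letters, not a measured binding site, and a window without one says nothing about elements elsewhere. The promoters nearest the main start of GCLM (chr1:93909381-93909680, minus strand) and TXNRD1 (chr12:104215529-104215828, plus strand) are shown because they hold matches, which are in capitals.

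GCLM: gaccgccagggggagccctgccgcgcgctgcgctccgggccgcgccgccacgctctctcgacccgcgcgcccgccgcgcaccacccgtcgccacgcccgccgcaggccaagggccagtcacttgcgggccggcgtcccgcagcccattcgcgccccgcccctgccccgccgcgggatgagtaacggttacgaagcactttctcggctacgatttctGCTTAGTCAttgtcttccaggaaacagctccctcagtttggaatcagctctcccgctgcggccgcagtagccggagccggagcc

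TXNRD1: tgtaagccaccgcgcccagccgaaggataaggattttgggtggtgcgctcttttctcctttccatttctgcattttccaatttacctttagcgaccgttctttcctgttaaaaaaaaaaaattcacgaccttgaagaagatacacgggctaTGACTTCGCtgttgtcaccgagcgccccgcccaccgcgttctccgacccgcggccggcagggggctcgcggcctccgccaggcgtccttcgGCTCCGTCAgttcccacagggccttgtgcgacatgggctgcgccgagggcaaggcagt

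Most of the 9 genes were among the most abundant transcripts of control A549 cells. Levels are given as cpm after TMM normalisation and, where genes are compared with each other, per kilobase (kb) of exon. In sh1Control, 5 of the 9 were in the top 1% of the 30705 genes with a count, and they were also in the top 1% in siControl, sh4Control and deep sh1Control and under both other length scales tried. AKR1B10, a reductase of retinal and other carbonyls, ranked 15 at 821 ± 19.4 cpm per kb (SD, n = 3). NQO1, the quinone reductase often used as a marker of NRF2 activity, followed at rank 44 (272 ± 13.5) and AKR1C2, a reductase of steroids and aldehydes, at rank 49 (254 ± 4.61). The ranges of NQO1 (258 to 285) and AKR1C2 (249 to 258) met, so these neighbours did not differ beyond their spread. AKR1C3, which reduces steroids and prostaglandins, ranked 81 (168 ± 5.66) and TXNRD1, the cytosolic thioredoxin reductase, ranked 89 (159 ± 2.88), and their ranges met at 162. AKR1C1, which inactivates progesterone, ranked 842 (28.3 ± 1.76). Both subunits of glutamate-cysteine ligase, which carries out the rate-limiting step of glutathione synthesis, came next, with the modifier subunit GCLM at rank 1452 (18.6 ± 1.15) and the catalytic subunit GCLC at rank 1758 (16.0 ± 0.435). SRXN1, sulfiredoxin, which repairs over-oxidised peroxiredoxins, ranked 11782 (1.30 ± 0.132). With the length of the main transcript in place of all exons, AKR1C3 (555 ± 18.7 cpm per kb) came ahead of AKR1C2 (481 ± 8.72) and NQO1 (320 ± 15.9), and GCLC ahead of GCLM. The order among these neighbours therefore depended on the length used. In the deep controls the ranks among 20774 genes were 17 for AKR1B10, 52 for AKR1C2, 53 for NQO1, 105 for TXNRD1, 125 for AKR1C3, 929 for SRXN1, 1126 for AKR1C1, 1624 for GCLM and 1848 for GCLC. Together the 9 genes made up 0.439% to 0.814% of a library's counts.

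**Figure D1:**
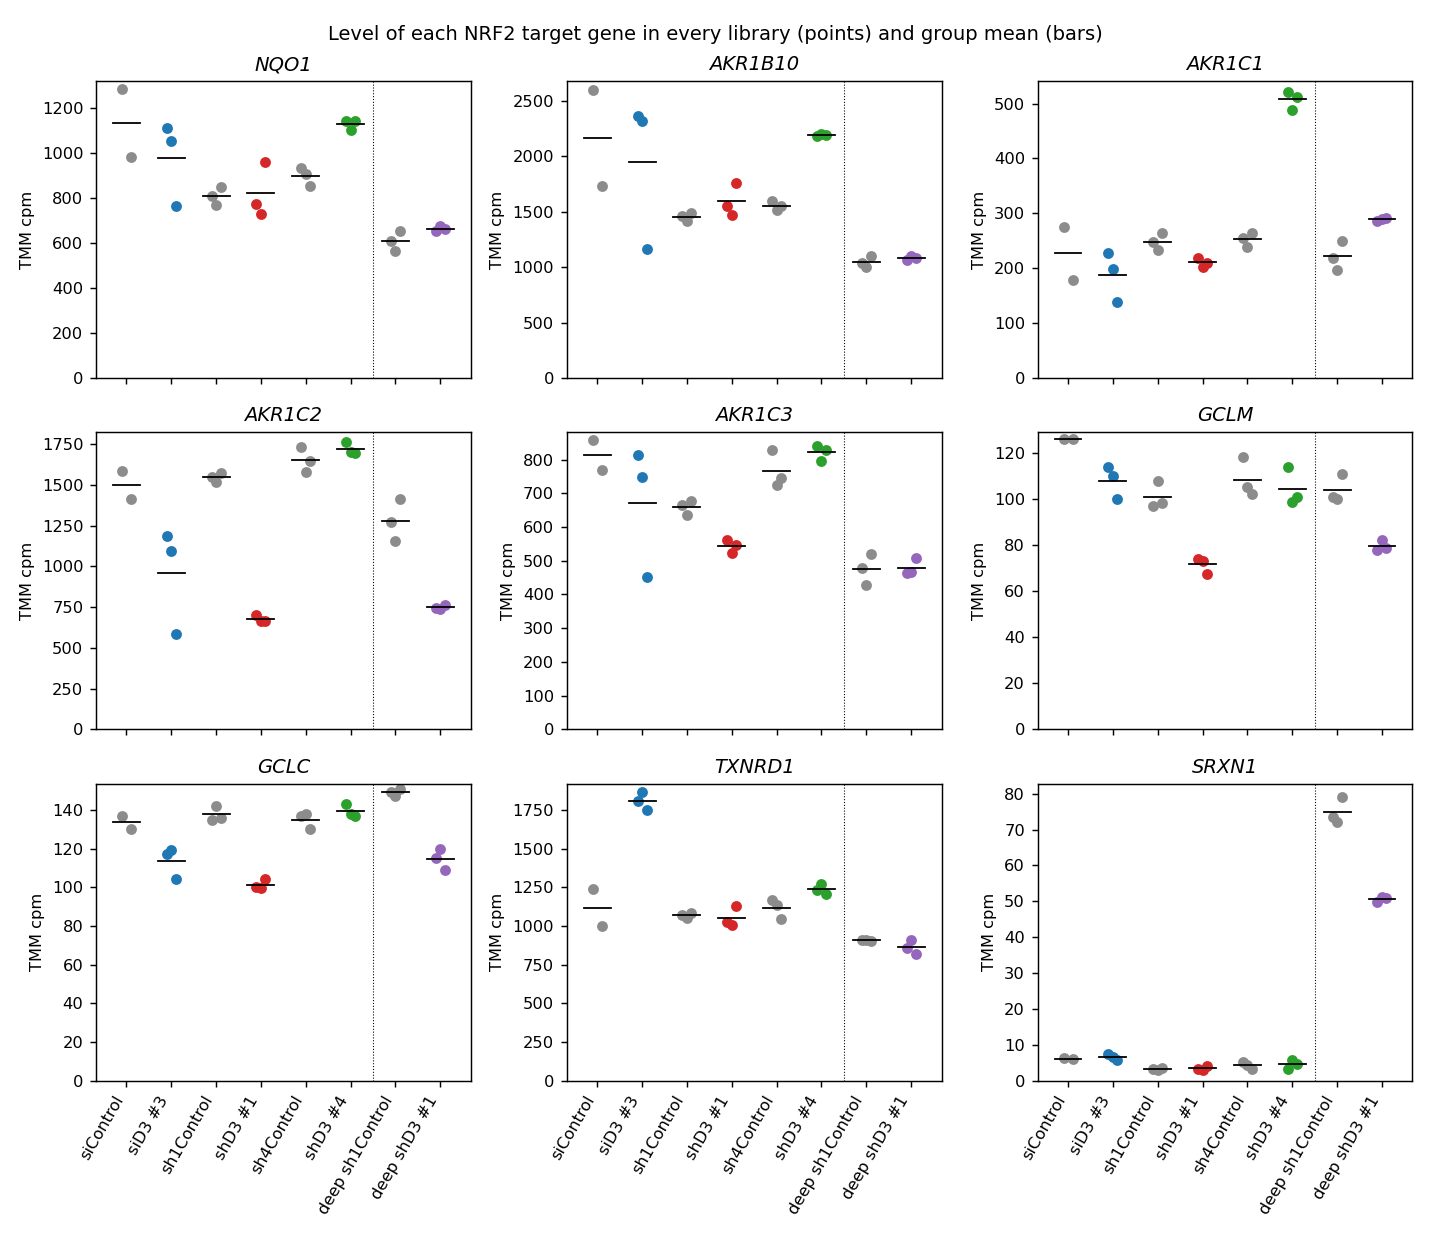
Level of each gene (TMM cpm, linear axis from 0) in every library, 1 point per library, with the group mean as a black bar. The dotted line separates the first set from the deep set, whose levels were normalised separately. AKR1C2 sits at 664 to 700 cpm in shD3 #1 against 1517 to 1573 cpm in sh1Control, AKR1C1 stands out in shD3 #4, TXNRD1 in siD3 #3, and SRXN1 is far lower in the first set than in the deep set.

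SRXN1 was the exception between the tables. Its control level was 3.27 cpm in the first set and 74.9 cpm in the deep set, a ratio of 22.9, and 99.7% of the 13879 genes compared had a lower ratio. For the other 8 genes the ratio was between 0.721 and 1.08. In the GENCODE annotation, 2292 of the 2528 exonic bases of SRXN1 (90.7%) are shared with an overlapping gene on the same strand, ENSG00000270299, and this gene had 0 counts in the first table. Reads in bases that belong to more than 1 gene are not assigned to either by the counting the study names. The part of this overlap in the low counts was not tested. The SRXN1 values of the first set rest on 40 to 153 counts per library and are uncertain, while those of the deep set rest on more reads.

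**Figure D2:**
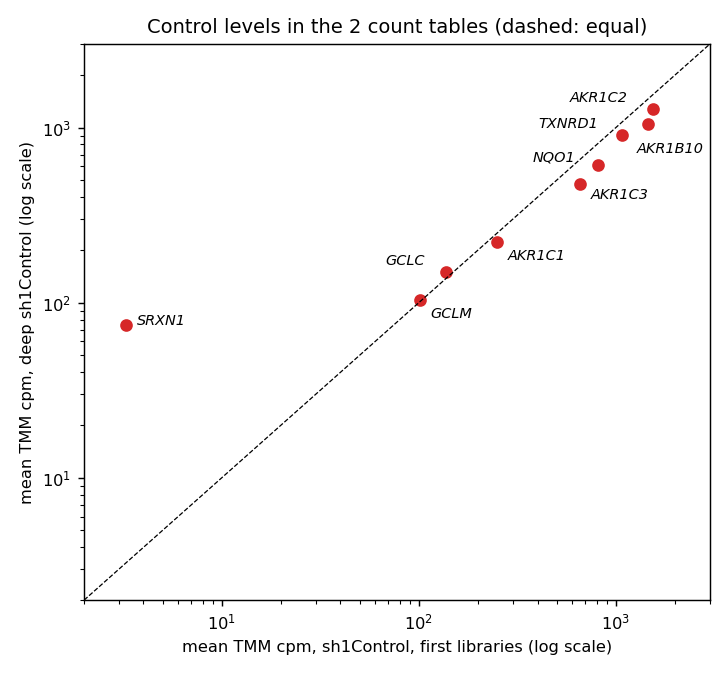
Mean level of each gene in sh1Control of the first set (x axis) and of the deep set (y axis), both in TMM cpm on log scales, with a dashed line where they are equal. Of the 9 genes, 8 lie near the line and SRXN1 lies at 3.27 cpm on the x axis and 74.9 cpm on the y axis.

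Few of the 9 genes differed between the control groups. Between sh1Control and sh4Control, 0 of the 9 genes were called by edgeR, against 0.0% of 18672 genes tested, with 0 of 9 at an unadjusted p under 0.05 and 0 called by DESeq2. To be called, a gene had to have an adjusted p below 0.05 and a difference of 1.5-fold or more (0.585 on the log2 scale). Between siControl and the mean of both shRNA controls, 1 of 9 was called against 7.27% of all genes. This was SRXN1, at 6.26 and 6.03 cpm in siControl and 2.95 to 5.16 cpm in the 6 shRNA controls (log2 difference 0.72 ± 0.18 (SE), adjusted p = 0.00586). NQO1 (0.41), AKR1B10 (0.53) and GCLM (0.27) were higher in siControl at adjusted p-values of 0.0139, 0.0269 and 0.0136 but under the fold threshold. By adjusted p alone 4 of the 9 were higher and 0 lower, against 2855 and 1851 of the 18672 genes. Without siControl replicate 1 no gene of the 9 was called here (0 of 9), and without siControl replicate 2 it was 3.

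In shD3 #1, AKR1C2 fell in both sets, and no other of the 9 genes was called. Of the 9 genes, 1 was called lower and 0 higher by edgeR, against 14.6% and 14.5% of the 16456 genes tested (1 higher at an unadjusted p under 0.05, and 0 by DESeq2). By adjusted p alone 5 were lower and 0 higher, against 27.8% and 28.6% of all genes (56.5% in either direction). The same 5 had all knockdown libraries below all controls and 0 had them above, against 32.5% and 29.6% (62.1% in either direction). The median log2 fold change was -0.22, and that of all genes was -0.01. In the deep set again 1 was called lower and 0 higher, against 14.1% and 15.0% of 18763 genes (2 higher at an unadjusted p under 0.05, and 0 by DESeq2). There 4 were lower and 1 higher by adjusted p alone, against 31.5% and 31.1% (62.6% in either direction). All libraries lay below the controls for 4 and above for 2, against 34.0% and 33.1% (67.1% in either direction), and the median was -0.07 against -0.02. In the first set the genes past the adjusted p were thus all lower, whereas all genes were split about evenly, and no test was made of the list.

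AKR1C2 was measured at 1548, 1517 and 1573 cpm in sh1Control and at 700, 666 and 664 cpm in shD3 #1. All 3 knockdown libraries were below all 3 controls, and the log2 fold change was -1.17 ± 0.05 (adjusted p = 6.91e-11). In the deep set it was at 1270, 1158 and 1412 cpm in the controls and 745, 740 and 762 cpm in the knockdown, again without overlap (-0.77 ± 0.06, adjusted p = 5.49e-08). Its neighbour AKR1C1 went the other way between the sets. In the first set it was at 247, 233 and 264 cpm in sh1Control and 219, 203 and 210 cpm in shD3 #1 (-0.22 ± 0.06, adjusted p = 0.00729), and in the deep set at 219, 197 and 250 cpm and 286, 290 and 291 cpm (0.38 ± 0.06, adjusted p = 1.26e-04). Neither change reached the fold threshold, and in each set the groups did not overlap. AKR1C3 was at 666, 634 and 676 cpm against 562, 524 and 545 cpm in the first set (-0.26 ± 0.06, adjusted p = 9.83e-04). In the deep set its groups overlapped (0.01 ± 0.06, adjusted p = 0.905).

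The pair that makes glutamate-cysteine ligase was lower in shD3 #1 in both sets, by less than the fold threshold. GCLM was at 96.9, 108 and 98.1 cpm in sh1Control and 74.0, 73.2 and 67.5 cpm in shD3 #1 (-0.48 ± 0.07, adjusted p = 1.77e-05). Its deep levels were 101, 100 and 111 cpm against 77.9, 82.1 and 78.7 cpm (-0.39 ± 0.05, adjusted p = 9.53e-06). GCLC was at 135, 142 and 136 cpm in sh1Control and 100, 99.8 and 104 cpm in shD3 #1 (-0.42 ± 0.06, adjusted p = 1.45e-05). Deep GCLC levels were 149, 147 and 151 cpm against 115, 120 and 109 cpm (-0.38 ± 0.04, adjusted p = 3.56e-06). For both subunits, every knockdown library was below every control of its set. SRXN1 was also lower in the deep set, at 73.4, 72.2 and 79.0 cpm against 49.9, 51.2 and 50.8 cpm, and stood just under the fold threshold (-0.57 ± 0.05, adjusted p = 1.65e-07). Without deep sh1Control replicate 2 it passed, at -0.59. In the first set its 3 shD3 #1 libraries, at 3.24, 3.04 and 3.93 cpm, overlapped sh1Control (0.04 ± 0.17, adjusted p = 0.857).

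The other genes of this comparison did not pass. NQO1 was at 807, 768 and 848 cpm in sh1Control and 774, 728 and 962 cpm in shD3 #1 (0.04 ± 0.08, adjusted p = 0.691), and at 563 to 654 cpm against 654 to 674 cpm in the deep set (0.12 ± 0.05, adjusted p = 0.051). AKR1B10 was at 1418 to 1486 cpm against 1469 to 1759 cpm (0.15 ± 0.07, adjusted p = 0.0629), and at 1003 to 1104 cpm against 1066 to 1097 cpm in the deep set (0.04 ± 0.05, adjusted p = 0.438). TXNRD1 was at 1048 to 1086 cpm against 1006 to 1131 cpm (adjusted p = 0.975), and at 902 to 910 cpm against 819 to 906 cpm in the deep set (-0.07 ± 0.05, adjusted p = 0.179). The first and deep comparisons of shD3 #1 are separate libraries, and the labels do not say whether they came from the same cultures.

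In shD3 #4, AKR1C1 rose, and AKR1C2, its near copy, overlapped with its controls. Of the 9 genes, 1 was called higher and 0 lower, against 8.0% and 4.5% of the 16493 genes tested by edgeR (0 lower at an unadjusted p under 0.05, and 0 by DESeq2). By adjusted p alone 3 were higher and 0 lower, against 20.0% and 20.8% of all genes (40.8% in either direction). All knockdown libraries were above all controls for 4 and below for 0, against 23.3% and 26.2% (49.5% in either direction). The median log2 fold change was 0.12 against 0.01 for all genes. AKR1C1 was at 255, 239 and 264 cpm in sh4Control and 522, 489 and 513 cpm in shD3 #4 (1.02 ± 0.07, adjusted p = 3.85e-12), with no overlap. AKR1C2 was at 1733, 1580 and 1648 cpm and 1763, 1701 and 1694 cpm, which overlapped (0.07 ± 0.07, adjusted p = 0.439). AKR1C3 also overlapped (723 to 828 cpm against 796 to 840 cpm, adjusted p = 0.179).

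AKR1B10 and NQO1 were higher in shD3 #4 at the adjusted p but under the fold threshold. AKR1B10 was at 1597, 1518 and 1556 cpm in sh4Control and 2185, 2202 and 2194 cpm in shD3 #4 (0.51 ± 0.07, adjusted p = 1.67e-06). NQO1 was at 935, 905 and 854 cpm and 1144, 1102 and 1142 cpm (0.35 ± 0.07, adjusted p = 1.88e-04). In both, all knockdown libraries were above all controls. TXNRD1, at 1046 to 1169 cpm against 1207 to 1273 cpm, did not overlap either but missed the adjusted p (0.16 ± 0.07, adjusted p = 0.0649). GCLM (102 to 118 cpm against 98.5 to 114 cpm), GCLC (130 to 138 cpm against 137 to 143 cpm) and SRXN1 (3.28 to 5.16 cpm against 3.35 to 5.65 cpm) overlapped, with adjusted p-values of 0.728, 0.459 and 0.713.

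In siD3 #3, TXNRD1 rose and no other of the 9 genes was called. This was 1 gene higher and 0 lower, against 12.5% and 9.42% of 17032 genes by edgeR (3 lower at an unadjusted p under 0.05, and 1 lower by DESeq2). By adjusted p alone the count was also 1 higher and 0 lower, against 16.6% and 16.4% (33.0% in either direction). In either direction 1 of 9 was called, against 22.0% of all genes. Libraries did not overlap for 1 gene above and 3 below, against 30.2% and 29.6% (59.9% in either direction), and the median was -0.21 against 0.03. TXNRD1 was at 1235 and 1001 cpm in siControl and 1805, 1867 and 1748 cpm in siD3 #3, all above the controls (0.70 ± 0.13, adjusted p = 0.00528). It was 0.71 without siD3 #3 replicate 3, 0.85 without siControl replicate 1 and 0.54 without siControl replicate 2 (adjusted p = 0.0466), where it no longer reached the fold threshold.

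The aldo-keto reductases spread widely within both siRNA groups. AKR1C2 was at 1585 and 1415 cpm in siControl and 1186, 1096 and 585 cpm in siD3 #3, all below the controls (-0.65 ± 0.27, adjusted p = 0.0981). The third library was the lowest. Without it the log2 fold change was -0.40 ± 0.10 with an adjusted p of 0.0102, which passed the p but not the fold threshold. AKR1C1 was at 276 and 178 cpm and 227, 198 and 138 cpm (-0.27 ± 0.23, adjusted p = 0.411), and -0.10 without siD3 #3 replicate 3. AKR1B10 was at 2601 and 1736 cpm in siControl and 2368, 2321 and 1166 cpm in siD3 #3 (-0.15 ± 0.31, adjusted p = 0.745), and its sign turned without siD3 #3 replicate 3 (0.11, adjusted p = 0.638). AKR1C3 was at 859 and 768 cpm and 812, 749 and 453 cpm (-0.27 ± 0.23, adjusted p = 0.388), and at -0.07 without that library (adjusted p = 0.622). NQO1 was at 1284 and 984 cpm and 1111, 1055 and 765 cpm (-0.21 ± 0.18, adjusted p = 0.416), and also at -0.07 without it (adjusted p = 0.674). Replicate 3 was the lowest siD3 #3 library for each of these genes, as it was for the epithelial markers, and the part of this in the values was not tested.

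GCLM was at 126 cpm in both siControl libraries and at 114, 110 and 100 cpm in siD3 #3 (-0.21 ± 0.09, adjusted p = 0.104). GCLC was at 137 and 130 cpm and 117, 119 and 104 cpm (-0.23 ± 0.09, adjusted p = 0.0951). Both lay below the controls in every knockdown library without passing the test, and were at -0.17 and -0.18 without siD3 #3 replicate 3 (adjusted p = 0.1 and 0.089). SRXN1, at 6.26 and 6.03 cpm against 7.38, 6.49 and 5.84 cpm, overlapped (0.10 ± 0.17, adjusted p = 0.689), and was at 0.17 without replicate 3 (adjusted p = 0.442). In bulk RNA, a change in transcript per cell cannot be told apart from a change in the share of cells that carry it.

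**Figure D3:**
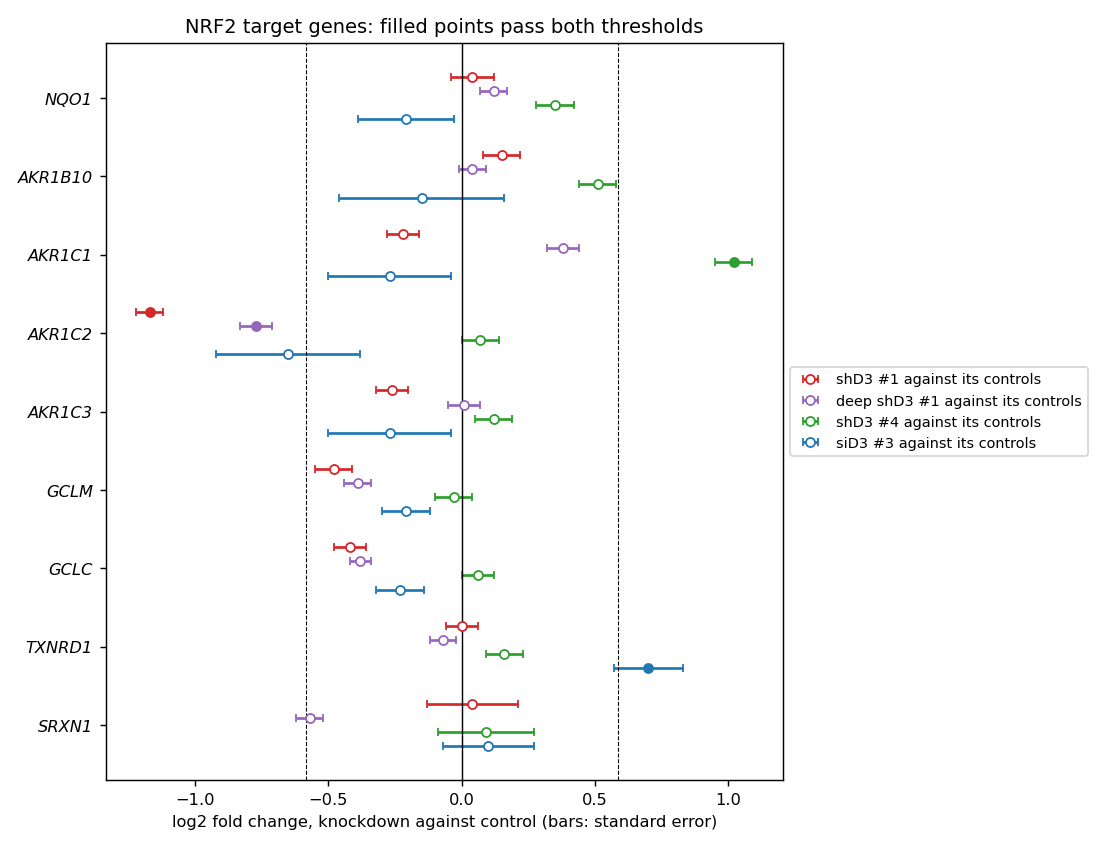
Log2 fold change of each gene in the 4 comparisons of a knockdown with its own controls (points, with the standard error as bars). Filled points passed both thresholds and dashed lines mark a log2 fold change of 0.585 in size. The filled points are AKR1C2 in shD3 #1 and deep shD3 #1, AKR1C1 in shD3 #4 and TXNRD1 in siD3 #3.

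The effects of the knockdowns differed from each other for some of the 9 genes, in either direction about as often as for all genes. In 1 model of all 17 libraries of the first set, the effect of shD3 #1 differed from that of shD3 #4 at an adjusted p under 0.05 for 4 of the 9 genes, against 39.4% of 18672 genes. All 4 were lower in shD3 #1 relative to shD3 #4, against 19.8% of all genes lower and 19.6% higher. The difference in log2 fold change was -1.24 ± 0.20 for AKR1C1 (adjusted p = 3.68e-05) and -1.25 ± 0.21 for AKR1C2 (adjusted p = 9.71e-05). It was -0.44 ± 0.11 for GCLM (adjusted p = 0.0028) and -0.49 ± 0.09 for GCLC (adjusted p = 2.08e-04). For NQO1, AKR1B10, AKR1C3, TXNRD1 and SRXN1 the differences were -0.31, -0.36, -0.38, -0.17 and -0.06, with adjusted p-values of 0.166, 0.26, 0.115, 0.24 and 0.896. Without siD3 #3 replicate 3 in this model the count was 6, since AKR1B10 (-0.36, adjusted p = 0.0272) and AKR1C3 (-0.38, adjusted p = 0.00155) then passed. The share of all genes in that refit is not given. The siRNA differed from the mean of both shRNAs for 2 of the 9, 1 higher and 1 lower, against 29.1% of all genes (14.5% higher and 14.6% lower). TXNRD1 was higher by 0.63 ± 0.10 (adjusted p = 9.03e-05), and AKR1C1 lower, with a difference of -0.66 ± 0.18 (adjusted p = 0.00927). The AKR1C1 value became -0.33 (adjusted p = 0.208) without siControl replicate 1. Without siD3 #3 replicate 3, AKR1C1 was at -0.50 and TXNRD1 at 0.64 (adjusted p = 0.00725 and 2.08e-05).

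AKR1C1 gained on AKR1C2 in every knockdown. Its share of the summed AKR1C1 and AKR1C2 counts, which needs no normalisation between libraries, was 13.3% to 14.4% in sh1Control and 23.4% to 24.0% in shD3 #1. It was 12.8% to 13.8% in sh4Control and 22.3% to 23.2% in shD3 #4, and 14.6% to 15.0% and 27.7% to 28.1% in the deep set. In siControl it was 14.8% and 11.2%, and in siD3 #3 16.0%, 15.3% and, in replicate 3, 19.1%. The groups did not overlap in any of the 4 comparisons, and the gap was smallest for the siRNA. In the first shD3 #1 set AKR1C2 fell by more than AKR1C1, in the deep set AKR1C2 was lower and AKR1C1 higher (0.38), and in shD3 #4 AKR1C1 was higher. The share was looked at after the values were seen and was not tested, and 3 against 3 libraries cannot give an exact permutation p under 0.1. Reads in stretches common to both genes cannot be placed on either. Of the 50-base windows of the main AKR1C2 transcript, 47.3% occur in another gene, and of AKR1C1 22.7%, of AKR1C3 18.6% and of AKR1B10 17.2%. The part of shared sequence in these counts was not tested.

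**Figure D4:**
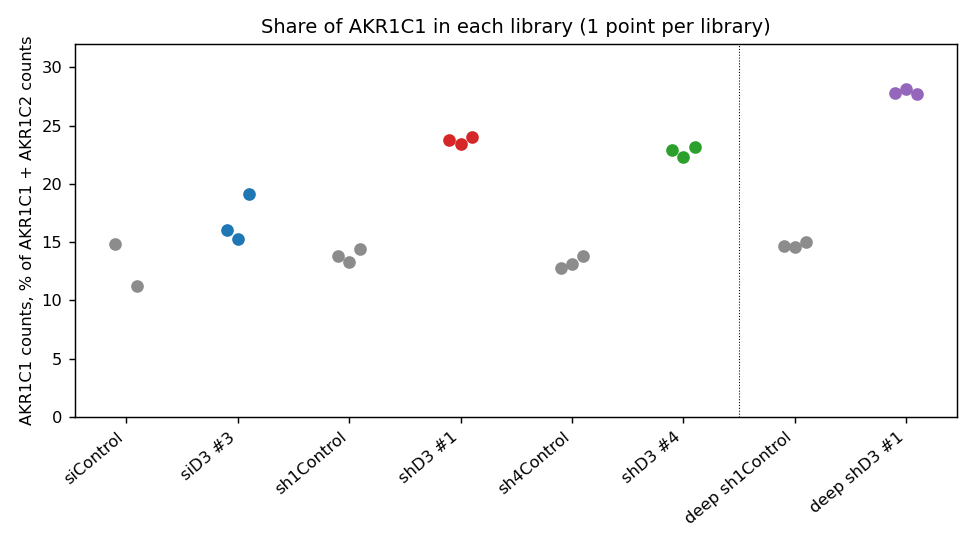
AKR1C1 counts as a percent of AKR1C1 plus AKR1C2 counts in each library, 1 point per library, with knockdowns in colour and controls in grey. Controls lie at 11.2% to 15.0%, the shRNA knockdowns at 22.3% to 28.1% and siD3 #3 at 15.3% to 19.1%.

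Over the 17 libraries of the first set, 8 of the genes (SRXN1 was under the 10 cpm minimum) could be set against the mean profile of the others. As a description, Pearson's r was 0.93 for AKR1C3, 0.79 for NQO1, 0.77 for GCLC, 0.73 for AKR1C2, 0.67 for AKR1B10, 0.63 for GCLM, 0.59 for AKR1C1 and 0.04 for TXNRD1. TXNRD1 thus followed the others least. The closest pairs were AKR1C2 with GCLC (0.97) and NQO1 with AKR1B10 (0.93). Among 9401 other genes, those most like the mean profile of the 8 were OAS1 (0.95), CAMK2N1 (0.95), PRR15 (0.95), PDLIM5 (0.93) and PKDCC (0.93). The points are libraries of 6 groups and share the groups and their controls.

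The regulators of NRF2 were measured in the same libraries. Of 10 regulators, 3 rose and 1 fell in shD3 #1, 1 fell in shD3 #4, 3 rose in siD3 #3 and 1 rose in deep shD3 #1. The shares of all genes called higher and lower were 14.5% and 14.6% in shD3 #1, 8.0% and 4.5% in shD3 #4, 12.5% and 9.42% in siD3 #3 and 15.0% and 14.1% in deep shD3 #1. BACH1, the repressor that competes with NRF2, was higher at the adjusted p in all 4 comparisons. It was at 19.7, 22.9 and 21.5 cpm in sh1Control and 33.1, 35.0 and 39.0 cpm in shD3 #1 (0.75 ± 0.08, adjusted p = 1.08e-06). In siD3 #3 it was at 46.2, 45.0 and 46.5 cpm against 27.9 and 24.6 cpm (0.81 ± 0.10, adjusted p = 7.78e-04). The deep value was 0.81 ± 0.07 (adjusted p = 6.99e-08), and in shD3 #4 it was 0.52 ± 0.08 (adjusted p = 1.96e-05), under the fold threshold. SQSTM1, the autophagy receptor that binds KEAP1 and is itself a target of NRF2, was at 796 to 850 cpm in sh1Control and 1566 to 1755 cpm in shD3 #1 (1.03 ± 0.06, adjusted p = 9.1e-10). It also rose in siD3 #3 (0.72 ± 0.19, adjusted p = 0.0211), and the deep (0.54) and shD3 #4 (0.20) values were under the fold threshold at adjusted p-values of 1.02e-05 and 0.019.

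NFE2L2 itself was called in 0 of the 4 comparisons by edgeR. It was at 42.6, 43.3 and 45.3 cpm in sh4Control and 63.6, 59.1 and 57.6 cpm in shD3 #4, without overlap (0.48 ± 0.07, adjusted p = 2.21e-06). In shD3 #1, deep shD3 #1 and siD3 #3 its log2 fold changes were -0.07, -0.06 and 0.31, with adjusted p-values of 0.39, 0.231 and 0.0719. KEAP1 was at 40.4, 44.6 and 46.1 cpm in sh1Control and 29.7, 31.3 and 30.3 cpm in shD3 #1 (-0.50 ± 0.07, adjusted p = 2.06e-05). In deep shD3 #1 it was -0.20 (adjusted p = 0.0116), and in shD3 #4 and siD3 #3 it was -0.09 and -0.16 (adjusted p = 0.291 and 0.249). NRF2 is known to be controlled mostly as a protein, which these counts do not measure.

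The small MAF genes, whose proteins pair with NRF2 or with BACH1, did not move as 1 group. MAFF rose in shD3 #1 (0.82 ± 0.17, adjusted p = 7.17e-04) and in siD3 #3 (1.38 ± 0.22, adjusted p = 0.00279) and fell in shD3 #4 (-1.18 ± 0.23, adjusted p = 2e-04), at a level of 0.913 to 12.9 cpm in the first set. MAFK fell in shD3 #1 (-0.77 ± 0.08, adjusted p = 3.7e-07), from 136 to 156 cpm down to 75.3 to 91.5 cpm. In the deep set MAFK was at 0.13 (adjusted p = 0.0531), and did not pass the test there. MAFG was at -0.45 in the deep set (adjusted p = 5.71e-07) and at -0.04 in the first (adjusted p = 0.67). CUL3 (-0.34 and -0.39) and RBX1 (-0.33 and -0.58) were lower at the adjusted p in shD3 #4 and siD3 #3, all under the fold threshold. Without siD3 #3 replicate 3, RBX1 passed both thresholds in siD3 #3 (-0.60, adjusted p = 0.00345). NFE2L1, a relative of NRF2, was between -0.18 and 0.14, with adjusted p-values from 0.109 to 0.641.

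**Figure D5:**
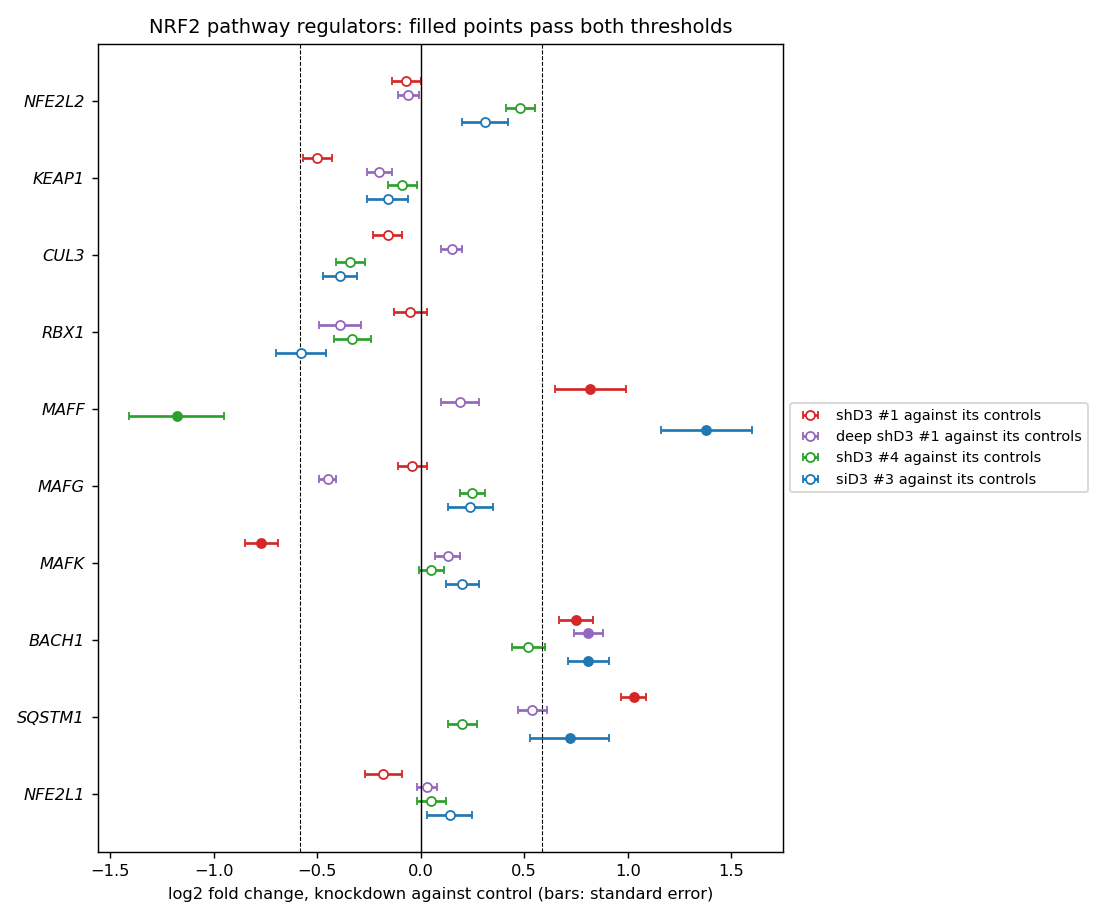
Log2 fold change of 10 regulators of NRF2 in the 4 comparisons (points, with the standard error as bars), drawn as for the target genes with filled points past both thresholds. BACH1 lies between 0.52 and 0.81 in all 4, while MAFF lies at 0.82 and 1.38 in shD3 #1 and siD3 #3 and at -1.18 in shD3 #4.

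Of 33 other NRF2 targets tested, 5 rose and 7 fell in shD3 #1 (14.5% and 14.6% of all genes), and 6 rose and 0 fell in shD3 #4 (8.0% and 4.5%). In siD3 #3, 3 rose and 1 fell (12.5% and 9.42%), and 7 rose and 1 fell without siD3 #3 replicate 3, with ALDH3A1, EPHX1, FTH1 and GPX2 added. The share of all genes called without that library is not given, so the larger count is not read as a result about the list. In deep shD3 #1, 3 rose and 9 fell (15.0% and 14.1%). Their medians were 0.12, 0.26, 0.08 and -0.03. GPX2, a glutathione peroxidase of epithelia, rose in shD3 #1 (0.82 ± 0.09), shD3 #4 (1.35 ± 0.07) and deep shD3 #1 (1.46 ± 0.10), with adjusted p-values of 2.15e-06, 2.3e-14 and 8.32e-09. In siD3 #3 it was at 0.39 ± 0.57 (adjusted p = 0.637), and it rose there without replicate 3 (0.81 ± 0.22, adjusted p = 0.0134). EPHX1, microsomal epoxide hydrolase, rose in shD3 #4 (1.00 ± 0.08, adjusted p = 3.23e-10) and was at 0.99 ± 0.34 in siD3 #3 (adjusted p = 0.059), where it rose without replicate 3 (1.26 ± 0.18, adjusted p = 4.59e-04). UGT1A6, a glucuronosyltransferase, rose in siD3 #3 (1.49) and deep shD3 #1 (1.37), at no more than 2.40 cpm in any library. TKT, transketolase of the pentose phosphate pathway, fell in shD3 #1 (-0.62 ± 0.06, adjusted p = 1.22e-07) and deep shD3 #1 (-0.60 ± 0.05, adjusted p = 9.45e-08). UGDH, which makes UDP-glucuronate, fell in the first shD3 #1 set (-0.59, adjusted p = 4.77e-04) but was at -0.03 in the deep set (adjusted p = 0.59). In the first set UGDH spread widely, with libraries at 155, 238 and 248 cpm in shD3 #1 and 319 to 331 cpm in sh1Control. CBR3, a carbonyl reductase, was between -0.54 and -0.12 and was called in 0 comparisons by edgeR. With all libraries, no gene of this list was called in the same direction in all 3 knockdowns of the first set, and without siD3 #3 replicate 3 GPX2 was.

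Among the other aldo-keto reductases, 7 of 9 could be tested in the first set and 8 in the deep set. AKR1A1, which reduces glucuronate and many aldehydes, fell in shD3 #1 (-0.67 ± 0.07, adjusted p = 5.23e-07), was at -0.45 in the deep set and at 0.41 in shD3 #4 (adjusted p = 3.35e-05 and 1.96e-05). AKR1B15, the closest relative of AKR1B10, rose in shD3 #4 (0.80 ± 0.08, adjusted p = 1.23e-08), where AKR1B10 was at 0.51. AKR1C8 rose in shD3 #4 (0.99, adjusted p = 0.0168) and in deep shD3 #1 (2.44 ± 0.20, adjusted p = 6.3e-08), from 0.773 to 1.07 cpm up to 3.62 to 5.34 cpm in the latter, and was at -0.39 in the first shD3 #1 set (adjusted p = 0.432). AKR1C4 rose in the deep set at under 1 cpm (0.75, adjusted p = 0.0361). AKR1B1, aldose reductase, was at 0.01 and -0.43 in the first and the deep shD3 #1 set, -0.33 in shD3 #4 and 0.36 in siD3 #3. In the order shD3 #1, shD3 #4, siD3 #3 and deep set, AKR1E2 was at -0.31, 0.20, -0.47 and -0.19, none past the fold threshold. AKR7A2, which detoxifies succinic semialdehyde, was in the same order at 0.45, 0.05, -0.40 and 0.26, and AKR7A3 was tested only in the deep set (-0.04).

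Of 12 further glutathione genes, 3 rose and 1 fell in shD3 #1, 2 rose and 1 fell in shD3 #4, 1 rose in siD3 #3 and 2 rose in deep shD3 #1. All genes were called higher and lower at 14.5% and 14.6%, 8.0% and 4.5%, 12.5% and 9.42%, and 15.0% and 14.1% in these comparisons. CHAC1, which degrades glutathione, rose in shD3 #1 (1.20 ± 0.17) and deep shD3 #1 (1.58 ± 0.16) and fell in shD3 #4 (-1.09 ± 0.22), with adjusted p-values of 2.3e-05, 7.84e-07 and 2.49e-04. GLRX, glutaredoxin, rose in shD3 #4 (0.99, adjusted p = 1.29e-10) and was at -0.51 in shD3 #1. In siD3 #3 it was at 0.83 (adjusted p = 0.0604), and it rose without replicate 3 (1.05, adjusted p = 6.41e-04). GSTA4, which conjugates glutathione to lipid aldehydes, rose in both (0.66 in shD3 #1 and 0.76 in shD3 #4). GGT1, which breaks down extracellular glutathione, fell in shD3 #1 (-1.17 ± 0.27, adjusted p = 0.0015) and was at -0.29 in the deep set. GPX4 was between -0.40 and 0.43 and GSTO1 between -0.39 and 0.04, neither past the fold threshold. Of 10 thioredoxin and peroxiredoxin genes, 9 could be tested, and 1 rose in each of shD3 #1, siD3 #3 and deep shD3 #1, with the same shares of all genes as just given. PRDX5 rose in shD3 #1 (0.83 ± 0.08, adjusted p = 1.79e-07) and was at 0.18 in the deep set. TXNIP, an inhibitor of thioredoxin, rose in siD3 #3 (2.32 ± 0.54, adjusted p = 0.014) and deep shD3 #1 (1.39 ± 0.15, adjusted p = 2.04e-06). TXNRD2 and TXNRD3, the other thioredoxin reductases, were at -0.53 and -0.43 in siD3 #3, where TXNRD1 rose, with adjusted p-values of 0.00876 and 0.123. PRDX3 was at -0.48 there (adjusted p = 0.0077), and TXN2 was between -0.27 and 0.17 in the 4 comparisons.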

How the data were processed

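RNA depleted of rRNA was sequenced by the authors from 23 A549 samples with a directional kit. Alignment was done with STAR on the GRCh38.p14 assembly, with counting per gene, naming the NCBI RefSeq annotation, although the first table lists versioned Ensembl identifiers. STAR 2.7.10a and Trimmomatic 0.40 are named in the submitters' processing notes. The deposited values of both tables are raw counts per gene, without normalisation. Reads that map to several places or to overlapping genes are not counted by this method, which lowers the counts of near-identical and overlapping genes.

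GENCODE 44 held 61757 genes of the first and 27502 genes of the deep set. No column was left out. Knockdown libraries were set against the controls of the same line or delivery, across all genes, by edgeR 4.0.16 in R 4.3.3 (TMM, filterByExpr, quasi-likelihood test, Benjamini-Hochberg adjustment). Thresholds were an adjusted p of 0.05 and a 1.5-fold change. Differences between knockdowns and between control groups were contrasts in 1 edgeR fit of the 17 first libraries, judged by adjusted p alone for the knockdowns. All adjusted p-values are from edgeR unless DESeq2 1.42.0 is named. Values after ± are the SE of a log2 fold change or the SD between libraries, as stated where they are given for levels. Counts limit the precision of the lowest genes most, and the p-values measure the spread between libraries labelled as biological replicates. On simulated counts with 2-fold changes, edgeR recovered 100%, 100%, 99% and 100% of changed genes in the simulated sets for shD3 #1 (16219 genes), shD3 #4 (16194), siD3 #3 (16476) and the deep set (18483), and 97% for the difference between shRNAs (17869). In the same order, these sets gave 5, 4, 4, 2 and 15 false calls. Whether these shares hold for the real libraries was not tested. In siD3 #3 some genes spread widely, with an SE of 0.31 for AKR1B10 and 0.27 for AKR1C2.

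Alternatives were DESeq2, its size factors in edgeR, removal of mitochondrial genes, other count filters, a log2 threshold of 1, 1 fit of all 17 libraries, a replicate block and leaving out each library. For the other gene lists, leaving out siD3 #3 replicate 3 was chosen after seeing the data. Replicate numbers were not used as pairs in the main fits, as the labels do not state a pairing. The correlations of same-numbered deviations lay between -0.107 and 0.143, and only 2 numbers are shared by the siRNA groups. With so few libraries these values cannot show whether samples were processed in pairs. Sequences came from RefSeq and GENCODE 44. The genes, the lists and the rules for naming genes were chosen with earlier results of these data known. Named were the 9 genes, all regulators and aldo-keto reductases tested, and in each other list the 3 highest and 3 lowest genes by mean log2 fold change over the 3 first comparisons. The 5 genes most like the members were ranked by Pearson's r of log2 cpm (0.5 added), among genes with a mean of at least 10 cpm.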

Additional observations from a re-analysis of the deposited data

Results flagged for a closer look

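The effect of THUMPD3 depletion differed between the 2 shRNAs for 4 of the 9 genes in the test of the difference itself (edgeR, all 17 first libraries), against 39.4% of all genes. The log2 fold change in shD3 #1 minus that in shD3 #4 was -1.24 for AKR1C1, -1.25 for AKR1C2, -0.44 for GCLM and -0.49 for GCLC, with adjusted p-values of 3.68e-05, 9.71e-05, 0.0028 and 2.08e-04. These genes were picked by this difference, so their library levels describe it and add no support. In each of these genes all 3 shD3 #1 libraries were below their controls, as for 32.5% of all genes. No gene of the 4 had all shD3 #4 libraries below theirs, against 26.2% of all genes. The effect of the siRNA differed from the mean of the shRNAs for AKR1C1 (-0.66, adjusted p = 0.00927) and TXNRD1 (0.63, adjusted p = 9.03e-05), 2 of the 9 against 29.1% of all genes. TXNRD1, picked in the same way, was above its controls in 3 of 3 siD3 #3 libraries, as were 30.2% of all genes. THUMPD3 was at 29.6 to 31.7 cpm in shD3 #1, 19.1 to 20.2 cpm in shD3 #4 and 10.7 to 12.7 cpm in siD3 #3, so the knockdowns also differed in the level of their target, whose part in these differences was not tested.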

How the results depend on the processing

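Depth limits SRXN1 in the first set most, at 40 to 153 counts per library. Each siRNA value rests on 2 controls, and where 1 is left out the other is assumed to vary like the remaining libraries. Of the single-gene refits, the direction and the side of the thresholds were kept in 117 of 126 for shD3 #1, 122 of 126 for shD3 #4, 108 of 117 for siD3 #3 and 111 of 117 for deep shD3 #1. For the differences they were kept in 197 of 207 between the shRNAs and 190 of 207 between siRNA and shRNAs, and for the control groups in 200 and 205 of 207. The number of genes in the top 1% was 5 under every length scale.

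The cause of the following changes was not tested, and the shares of all genes called in these refits are not given. In siD3 #3 the count of genes called higher was 0 with a log2 threshold of 1 and 0 to 1 when a library was left out (0 without siControl replicate 2). The count called lower was 1 rather than 0 with DESeq2, with no filter beyond 1 count and in 1 fit of all 17 libraries, in each case AKR1C2 (-0.66, -0.68 and -0.65). In deep shD3 #1 the count called lower was 2 with no filter, 1 to 2 when a library was left out (2 without deep sh1Control replicate 2) and 0 with a log2 threshold of 1. Genes whose effect differed between the shRNAs were 7 with no filter and 4 to 6 with a library left out. Those that differed between siRNA and shRNAs were 4 with no filter and 1 to 4 with a library left out (1 without siControl replicate 1, 4 without siControl replicate 2 and 4 without siD3 #3 replicate 1). Those called between siControl and the shRNA controls were 0 to 3, with 0 and 3 from leaving out siControl replicates 1 and 2. With no filter the median of all genes moved to 0.27 in siD3 #3 and 0.18 for siRNA minus shRNAs, and no other setting moved it by over 0.1.

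Signs turned for small values. With a library left out, ranges that crossed 0 were -0.09 to 0.13 for NQO1, -0.06 to 0.03 for TXNRD1 and -0.05 to 0.13 for SRXN1 in shD3 #1, and -0.10 to 0.03 for GCLM and -0.10 to 0.29 for SRXN1 in shD3 #4. In siD3 #3 they were -0.42 to 0.17 for AKR1B10 and -0.56 to 0.07 for AKR1C1, and in deep shD3 #1 -0.06 to 0.08 for AKR1C3. Between the shRNAs SRXN1 ranged from -0.25 to 0.14. Between siRNA and shRNAs the ranges were -0.28 to 0.16 for AKR1C2, -0.36 to 0.01 for AKR1C3, -0.09 to 0.01 for GCLC and -0.06 to 0.12 for SRXN1. Between control groups they were -0.50 to 0.13 for AKR1C1, -0.07 to 0.00 for GCLC and -0.13 to 0.17 for TXNRD1 in siControl, and -0.07 to 0.02 for AKR1C1 in sh1Control minus sh4Control. TXNRD1 was 0.00 in shD3 #1 under DESeq2 and under its size factors and -0.00 in siControl with at least 10 counts in every library, and AKR1C3 was -0.02 in deep shD3 #1 with no filter. With the replicate number as a block, AKR1B10 in siD3 #3 was 0.14 (adjusted p = 0.401) and the counts of called genes were the main ones in every comparison, with 1 lower in shD3 #1, 1 higher in shD3 #4 and 1 higher in siD3 #3.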

Other observations

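HMOX1, heme oxygenase, and PIR, pirin, both listed as NRF2 targets, were singled out after their values were seen because the sets disagreed. HMOX1 rose in siD3 #3 (1.42 ± 0.14, adjusted p = 2.69e-04), from 59.0 and 80.4 cpm to 179 to 196 cpm. It fell in deep shD3 #1 (-1.27 ± 0.08, adjusted p = 7.39e-09), from 88.0 to 93.4 cpm down to 31.9 to 44.3 cpm. In the first shD3 #1 set it was at -0.08 ± 0.06 (adjusted p = 0.32). PIR fell in siD3 #3 (-0.72 ± 0.10, adjusted p = 0.00133) and in deep shD3 #1 (-1.52 ± 0.14, adjusted p = 2.83e-07), and was at 0.09 ± 0.08 in the first shD3 #1 set (adjusted p = 0.349). Its level was 36.5 to 41.7 cpm in sh1Control and 50.8 ± 2.62 cpm (SD, n = 2) in siControl of the first set, and 4.87 to 5.26 cpm in deep sh1Control, so the tables differ for this gene. The adjusted p-values are from edgeR, and the difference between the first and the deep set was not tested.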
